A study of Mus musculus with 8 samples.

Results

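Fatty acid oxidation and ketogenesis were described through 37 listed genes, of the 18193 genes that the arrays name by a probe set with 1 gene symbol. Of the 37, 35 had such a probe set and 34 were bright enough to test. Where a gene had several, the probe set with the highest mean over the 8 arrays stood for it. The listed genes were sorted by role and by whether the protein works in mitochondria, in peroxisomes or in both. Acsl1 was not analysed here, nor was Cpt1b, whose probe set is annotated to several genes. Acox3 was below the level filter.

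The 4 Bmi1 arrays come from Dlk-positive hepatoblasts transduced with Bmi1, a Polycomb repressor gene, and the 4 Control arrays from the same kind of cells transduced with EGFP. All cells of both groups were Ink4a-Arf-null, so the locus best known as a Bmi1 target was absent from both. Hepatoblasts, the fetal precursors of hepatocytes and bile duct cells, were taken from livers at embryonic day 14.5, sorted with magnetic beads, and transduced 12 to 18 h later. The medium held hepatocyte growth factor (HGF, 50 ng/ml) with epidermal growth factor (EGF, 20 ng/ml), and transduced cells were purified by flow cytometry on day 28. RNA equal to 10000 cells was amplified in 2 cycles before hybridisation. The series describes 4 independent experiments, and replicate numbers 1 to 4 are used here as pairs.

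Liver cells take up long-chain fatty acids, bind them in the cytosol and join them to coenzyme A. Carnitine carries the acyl groups into mitochondria, where each turn of beta-oxidation shortens the chain by way of an acyl-CoA dehydrogenase, a hydratase, a second dehydrogenase and a thiolase. Peroxisomes run a parallel set of enzymes for very long, branched and dicarboxylic chains and for bile acid side chains. In the fasted liver the acetyl-CoA formed feeds ketone body synthesis, and the nuclear receptor PPARA is the best known activator of these genes.

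The array signal of Bmi1, the introduced gene, was read first. Whether this signal comes from the introduced copy, from the cells' own gene or from both was not tested. Bmi1 signals were 318, 273, 328 and 197 on the Bmi1 arrays, against 802, 395, 568 and 306 on the Control arrays. The group means were 279 ± 60.01 and 518 ± 218 (SD, n = 4 each). On the log2 scale the difference was -0.89, with a limma adjusted p of 0.461, and 0.0248 with the replicate block. The signal was thus lower in each pair on the array labelled Bmi1, and all directions below are by the labels. Replicates 1 and 2 stood apart from replicates 3 and 4 by the BioC 3′ hybridisation control, at 198 to 274 and 97.0 to 119. They are called run 1 and run 2 here, a split by replicate number, since the sample titles give no run. The Gapdh 3′ to 5′ ratio, a sign of RNA quality, was 3.10 on Control 1 and 1.65 to 1.96 on the other arrays.

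Of the 34 tested genes of the pathway, 31 had a lower mean on the Bmi1 arrays and 3 a higher mean, where 54.3% of all 10916 tested genes were lower. The median log2 difference, Bmi1 minus Control, was -0.30 over the pathway and -0.03 over all tested genes. Centring each array on all probe sets moved the median of all genes to 0.11 and left 24 of the 34 lower. Under that or another scaling Cpt1a, Crot, Decr2, Echs1, Eci1, Hadha and Pex11a turned slightly higher. The limma test without a block called none of them in either direction (adjusted p under 0.05), as against 0.055% of all genes lower and 0.11% higher. At an unadjusted p under 0.05, 11 were lower and 0 higher, where 4.33% of all genes were lower. With the replicate block 5 fell, Slc27a2, Fabp1, Acad11, Ehhadh and Acaa1b, and 0 rose, where 1.96% of all genes were called lower and 1.36% higher. At an unadjusted p under 0.05 in that model, 18 were lower and 0 higher, where 10.6% of all genes were lower. In 4 of 4 pairs 21 were lower, where 15.9% of all genes were, and 1, Eci2, was higher, where 11.4% were. After each array was centred on its median, the groups did not overlap for 6 lower and 0 higher genes, where 2.91% of all genes were apart and lower and 2.42% apart and higher. In bulk RNA, fewer cells of a type and less RNA per cell cannot be told apart.

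**Figure D1:**
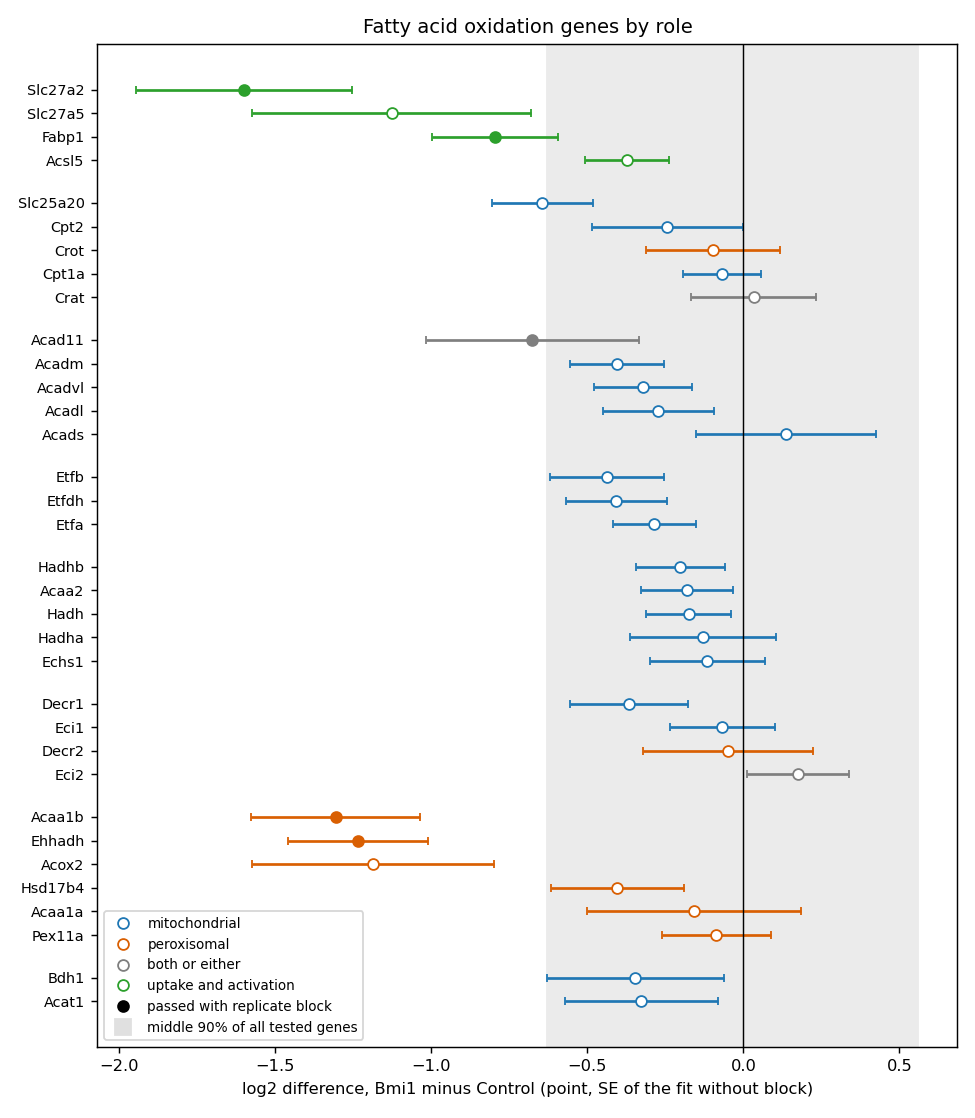
Log2 difference, Bmi1 minus Control, of each of the 34 tested genes (x axis), grouped down the page by role, with the SE of the model without a block. Colours give the compartment, filled points passed with the replicate block, and the grey band spans the middle 90% of all tested genes, from -0.63 to 0.56. Slc27a2, Acaa1b, Ehhadh, Acox2 and Slc27a5 lie farthest to the left.

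The compartments were described separately. All 8 tested peroxisomal genes had a lower mean, with a median of -0.28 and a range of -1.31 to -0.05, and 2 fell with the block. Of all tested genes, 54.3% had a lower mean and 1.96% were called lower with the block. Of the 19 mitochondrial genes, 18 had a lower mean, with a median of -0.27 and a narrower range of -0.64 to 0.14, and limma called none. At an unadjusted p under 0.05 in limma, 4 were lower without the block and 9 with it, where 4.33% and 10.6% of all genes were. The 4 uptake and activation genes, all lower, had a median of -0.96. Of the 3 genes active in both compartments, Acad11 was lower, at -0.68, and Crat and Eci2 were slightly higher, at 0.03 and 0.18. The differences beyond 2-fold were those of Slc27a2, Slc27a5, Acox2, Ehhadh and Acaa1b, 5 of 34 genes where 2.47% of all genes were that much lower, and none was 2-fold higher, where 1.48% were. No mitochondrial gene was among them, and the compartments were not tested against each other.

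Uptake and activation held the largest difference. Slc27a2 (probe set 1416316_at) encodes FATP2, a very-long-chain acyl-CoA synthetase and fatty acid transporter of liver. Its signals were 137, 346, 214 and 503 on the Bmi1 arrays, against 615, 867.8, 953 and 718 on the Control arrays. The highest Bmi1 array was thus below the lowest Control array. Means were 299.9 ± 160.5 and 788 ± 151 (SD, n = 4 each), for a log2 difference of -1.60 (SE 0.35), with a limma adjusted p of 0.142 without and 0.0225 with the replicate block. Fabp1 (1448764_a_at), the cytosolic fatty acid binding protein of hepatocytes and a classical PPARA target, read 2112, 1486, 1643 and 2666 on the Bmi1 arrays, against 3401, 2506, 3921 and 3064 on the Control arrays. Only Bmi1 4 and Control 2 overlapped in signal, and after centring no array did. The log2 difference was -0.80 (SE 0.20), with a limma adjusted p of 0.220 without and 0.0403 with the block. The other Fabp1 probe set read 187, 136, 201 and 339 on the Bmi1 arrays, against 309, 262, 653 and 436 on the Control arrays. It too was lower in each pair, at -0.99, and missed the threshold with the block when every probe set was tested (limma adjusted p 0.0542).

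Slc27a5, the bile acyl-CoA synthetase FATP5, was dim, at 17.5, 25.9, 6.83 and 8.45 on the Bmi1 arrays and 39.3, 46.3, 32.5 and 15.7 on the Control arrays. It was lower in each pair by a log2 difference of -1.13, with a limma adjusted p of 0.551, and 0.0796 with the block. Acsl5, an acyl-CoA synthetase, differed by -0.37 and was likewise lower in each pair, with a limma adjusted p of 0.475, and 0.141 with the block. Neither passed. The promoter stretches of Fabp1 and Slc27a2 are shown because these genes of uptake both fell with the block and both hold the letters AGGTCA, which nuclear receptors can bind. These letters were in 16.3% of all windows searched and in 6 of the 30 listed genes with a window. Acad11, Ehhadh and Acaa1b, which fell with the block too, held none. They are the 250 bases before the start of the gene from RefSeq on GRCm38.p6, at chr6:71199629-71199878 (plus strand) for Fabp1 and chr2:126552774-126553023 (plus strand) for Slc27a2. Capitals mark each match to AGGTCA, or to 2 copies of AGGNCA with 1 base between them, a direct repeat form bound by PPARA and HNF4A, on either strand.
Fabp1: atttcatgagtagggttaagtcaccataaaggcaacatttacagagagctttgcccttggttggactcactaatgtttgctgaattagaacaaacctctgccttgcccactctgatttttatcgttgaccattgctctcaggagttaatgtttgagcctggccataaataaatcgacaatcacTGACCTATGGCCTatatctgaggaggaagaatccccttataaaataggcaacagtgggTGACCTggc
Slc27a2: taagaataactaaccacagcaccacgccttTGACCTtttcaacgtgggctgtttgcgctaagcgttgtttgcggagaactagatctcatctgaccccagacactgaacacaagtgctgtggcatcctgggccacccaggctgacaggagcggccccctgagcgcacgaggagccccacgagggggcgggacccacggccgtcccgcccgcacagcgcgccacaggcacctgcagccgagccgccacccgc
The Fabp1 window held the repeat form once, as TGACCTATGGCCT on the minus strand from base -67, which includes one of its AGGTCA matches, and another AGGTCA match from base -9. In Slc27a2 the match began at base -220.

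**Figure D2:**
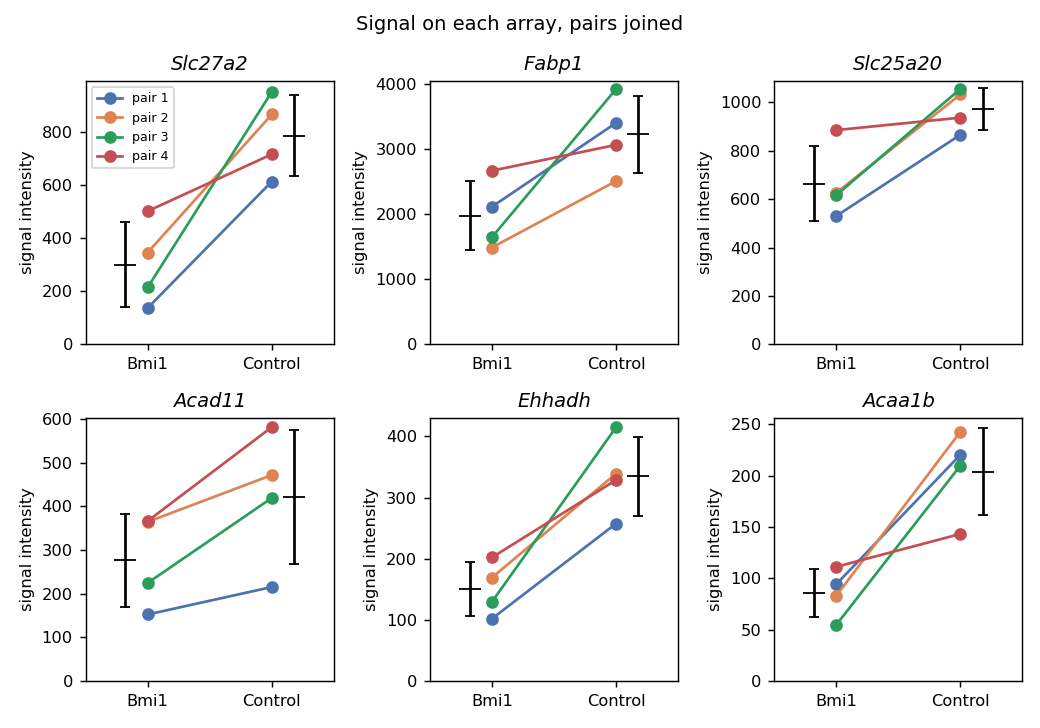
Signal intensity (y axis, linear, from 0) of 6 genes on each array, Bmi1 at the left and Control at the right of each panel, with lines joining the arrays of the same replicate number and bars for mean and SD (n = 4). Every line climbs from Bmi1 to Control, and pair 4 has the flattest lines for Slc27a2, Fabp1, Slc25a20, Ehhadh and Acaa1b.

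The carnitine shuttle differed less. Slc25a20, the carnitine-acylcarnitine carrier of the inner membrane, read 530.01, 626, 616 and 886 on the Bmi1 arrays, against 867, 1033, 1056 and 937 on the Control arrays. Bmi1 4 lay above Control 1 in signal, and after centring the groups did not overlap. The means were 664 ± 154 and 973 ± 87.9 (SD, n = 4 each). At a log2 difference of -0.64 (SE 0.16) the gene did not pass, with a limma adjusted p of 0.210, and 0.0562 with the block. The other shuttle genes had small differences that did not pass. Cpt1a, the rate-limiting carnitine palmitoyltransferase of the outer membrane, read 635, 648, 801 and 732 on the Bmi1 arrays, against 581, 732, 734 and 761 on the Control arrays, a choice made after the values were seen. These groups overlapped throughout, with a log2 difference of -0.07 (SE 0.13) and a limma adjusted p of 0.976, and its 3 probe sets did not have the same sign. Cpt2, the inner transferase, differed by -0.24, and the peroxisomal octanoyltransferase Crot and the acetyltransferase Crat by -0.10 and 0.03. The 3 Crat probe sets differed in sign, from -0.36 to 0.69, and with the probe set of highest unlogged mean Crat differed by 0.69 without passing.

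Among the acyl-CoA dehydrogenases, which begin each turn, Acad11 fell with the block. It acts on very long chains and 4-hydroxy acids. Its signals were 152, 364, 224 and 366 on the Bmi1 arrays, against 215, 472, 419 and 581 on the Control arrays. The arrays of the groups overlapped, and within each pair the Bmi1 array was lower. Means were 277 ± 106 and 422 ± 154 (SD, n = 4 each), for a log2 difference of -0.68 (SE 0.34), with a limma adjusted p of 0.741 without and 0.0315 with the block. The other Acad11 probe set differed by -0.61. The very-long-, long- and medium-chain enzymes Acadvl, Acadl and Acadm differed by -0.32, -0.27 and -0.40, each lower in 4 of 4 pairs, and the short-chain Acads by 0.14. None of these 4 passed, and Acadvl and Acadm were nearest, with limma adjusted p of 0.103 and 0.110 with the block. The Acad11 stretch before the start, at chr9:104063474-104063723 (plus strand, GRCm38.p6), is shown as that of a gene which fell with the block, and it held no match to either form.
Acad11: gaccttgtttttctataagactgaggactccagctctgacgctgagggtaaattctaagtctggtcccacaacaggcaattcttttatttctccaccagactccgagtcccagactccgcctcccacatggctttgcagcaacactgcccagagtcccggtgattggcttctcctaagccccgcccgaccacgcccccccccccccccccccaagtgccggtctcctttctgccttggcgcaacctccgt

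Electrons from these enzymes pass to the flavoprotein ETF and its ubiquinone oxidoreductase. Etfb read 505, 734, 573 and 601 on the Bmi1 arrays, against 553, 911, 755 and 924 on the Control arrays. The groups overlapped, with the Bmi1 array lower in each pair. The log2 difference was -0.44 (SE 0.18), with a limma adjusted p of 0.578, and 0.0729 with the block. Etfdh and Etfa differed by -0.41 and -0.29, and both were also lower in 4 of 4 pairs without passing.

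The mitochondrial enzymes that complete the turn had some of the smallest differences of the pathway, from -0.20 to -0.12. Hadhb, the thiolase subunit of the trifunctional protein, read 978, 1236, 1130.2 and 1299 on the Bmi1 arrays, against 951, 1309, 1408 and 1444 on the Control arrays. Control 1, the array with the Gapdh ratio of 3.10, was the lowest of all, so the groups overlapped, and the part of RNA quality was not tested. The log2 difference was -0.20 (SE 0.14), with a limma adjusted p of 0.890, and 0.310 with the block. Acaa2, the thiolase of medium chains, differed by -0.18, the short-chain hydroxyacyl-CoA dehydrogenase Hadh by -0.17, the other trifunctional subunit Hadha by -0.13 and the short-chain hydratase Echs1 by -0.12.

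Of the enzymes that handle double bonds, Decr1, the mitochondrial dienoyl-CoA reductase, read 456, 663, 520.4 and 601 on the Bmi1 arrays, against 583, 907, 569 and 711 on the Control arrays. It was lower in each pair while the groups overlapped. The log2 difference was -0.37 (SE 0.19), with a limma adjusted p of 0.757, and 0.113 with the block. The isomerase Eci1 and the peroxisomal reductase Decr2 differed by -0.07 and -0.05. Eci2, the isomerase found in both compartments, was the 1 gene of the pathway with a higher signal in 4 of 4 pairs, at 0.18, with a limma adjusted p of 0.943, and 0.334 with the block.

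Peroxisomal oxidation held the largest differences after Slc27a2. Ehhadh, the bifunctional hydratase and dehydrogenase and a classical PPARA target in rodents, read 102, 169, 129 and 202 on the Bmi1 arrays, against 257, 339, 415 and 329 on the Control arrays. The highest Bmi1 array was below the lowest Control array. Means were 150.5 ± 44.0 and 335 ± 64.5 (SD, n = 4 each), for a log2 difference of -1.23 (SE 0.22), with a limma adjusted p of 0.0870 without and 0.0156 with the block. Acaa1b, the rodent thiolase B, read 94.1, 82.9, 54.5 and 111 on the Bmi1 arrays, against 220.4, 243, 209.9 and 143 on the Control arrays. These groups did not overlap either. Means were 85.7 ± 23.8 and 204 ± 42.8 (SD, n = 4 each), for a log2 difference of -1.31 (SE 0.27), with a limma adjusted p of 0.120 without and 0.0317 with the block. Acox2, the oxidase of branched chains and bile acid intermediates, read 213, 201, 61.4 and 169 on the Bmi1 arrays, against 234, 439, 317 and 318 on the Control arrays. The groups were apart, with Bmi1 3 lowest. The log2 difference was -1.19 (SE 0.39), with a limma adjusted p of 0.381, and 0.0820 with the block, so it did not pass. Hsd17b4, the multifunctional enzyme of branched chains, differed by -0.40 in 4 of 4 pairs, with a limma adjusted p of 0.0613 with the block. Pex11a, which promotes peroxisome division, differed by -0.09. Acox3 read 4.08 ± 3.57 on the Bmi1 arrays and 9.36 ± 3.61 on the Control arrays (SD, n = 4 each), near background, and was not tested.

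The peroxisomal thiolase genes Acaa1a and Acaa1b are near-identical copies, so their probe sets may share RNA and their values are uncertain. Acaa1a itself read 149, 146, 89.6 and 217 on the Bmi1 arrays, against 117, 277, 115 and 143 on the Control arrays, values given in full after they were seen. The groups overlapped and the sign differed between pairs. Its log2 difference was -0.16, with a limma adjusted p of 0.985, and 0.790 with the block. A probe set annotated to both genes, 1416947_s_at, read 518, 621, 687 and 685 on the Bmi1 arrays, against 461, 666, 701 and 701 on the Control arrays. Another, 1416946_a_at, read 195, 225, 216 and 253 on the Bmi1 arrays, against 135, 217, 216 and 262 on the Control arrays. Their differences were -0.07 and 0.05, and of the 5 thiolase probe sets that of Acaa1b alone had groups that did not overlap. The stretches before the starts of Ehhadh at chr16:21787835-21788084 (minus strand), Acaa1b at chr9:119157094-119157343 (minus strand) and Acaa1a at chr9:119341044-119341293 (plus strand), on GRCm38.p6 and 5′ to 3′ on the gene's strand, are shown for the genes that fell with the block and for the copy that did not pass. None holds a match to either form, so there are no capitals.
Ehhadh: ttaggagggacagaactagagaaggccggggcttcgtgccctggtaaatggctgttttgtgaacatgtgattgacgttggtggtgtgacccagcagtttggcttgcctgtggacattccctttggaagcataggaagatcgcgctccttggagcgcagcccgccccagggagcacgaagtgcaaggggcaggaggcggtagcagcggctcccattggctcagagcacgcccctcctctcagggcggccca
Acaa1b: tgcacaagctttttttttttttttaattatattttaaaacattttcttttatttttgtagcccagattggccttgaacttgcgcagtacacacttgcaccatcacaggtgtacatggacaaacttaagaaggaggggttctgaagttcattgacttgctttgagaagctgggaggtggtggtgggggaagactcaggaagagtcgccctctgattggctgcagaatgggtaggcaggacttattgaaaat
Acaa1a: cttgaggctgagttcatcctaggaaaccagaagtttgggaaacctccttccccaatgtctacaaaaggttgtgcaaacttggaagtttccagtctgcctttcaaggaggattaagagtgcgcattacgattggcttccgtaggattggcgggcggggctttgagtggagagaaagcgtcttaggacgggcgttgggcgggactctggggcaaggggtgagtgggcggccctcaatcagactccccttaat

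**Figure D3:**
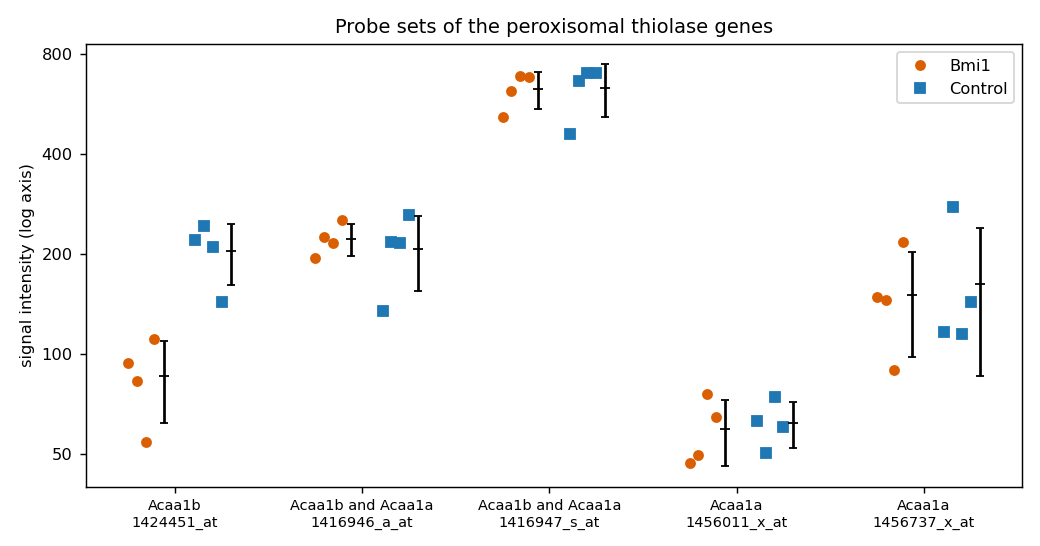
Signal intensity (y axis, log scale) of the 5 probe sets annotated to Acaa1b, to both thiolase genes or to Acaa1a, with 4 Bmi1 arrays left of 4 Control arrays and bars for mean and SD. The groups are apart for the Acaa1b probe set and overlap for the other 4.

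Of the ketone body genes, Bdh1, the hydroxybutyrate dehydrogenase, read 56.0, 58.8, 57.0 and 77.8 on the Bmi1 arrays, against 38.8, 81.0, 88.9 and 114 on the Control arrays. Control 1 was the lowest array and the groups overlapped. The log2 difference was -0.35 (SE 0.28), with a limma adjusted p of 0.926, and 0.446 with the block. Acat1, the mitochondrial acetoacetyl-CoA thiolase, differed by -0.33 in 4 of 4 pairs, with a limma adjusted p of 0.911, and 0.141 with the block.

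The pairs and the runs were set side by side. The median difference of the pathway was -0.25, -0.38, -0.44 and -0.15 in pairs 1 to 4, and -0.35 in run 1 and -0.27 in run 2. The median of all tested genes in the pairs lay between -0.05 and -0.01. With run as a block in place of the pair, 3 genes fell, Slc27a2, Ehhadh and Acaa1b, where 0.944% of all genes were called lower, and 0 rose, where 0.87% were called higher. Ehhadh differed by -1.40, -1.07, -1.74 and -0.72 in pairs 1 to 4, and -1.24 and -1.23 in the runs. Runs themselves differed for 24.3% of all genes and for 4 of the 34, with Slc27a5 lower in run 2 and Acadl, Acads and Hadh higher.

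Each pair was left out in turn with the block kept. With pair 1 or pair 3 left out, limma called none of the 34, and with pair 2 left out only Ehhadh passed, at a limma adjusted p of 0.0495. With pair 4 left out 5 genes passed, and Slc25a20 took the place of Acad11, which was at 0.112. Over all tested genes, 214 were called lower with every pair in, and 104, 76, 63 and 141 without pairs 1 to 4. The 5 genes called with every pair in were each lower in all 4 pairs. Their differences therefore could not change sign in these 4 repeats.

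**Figure D4:**
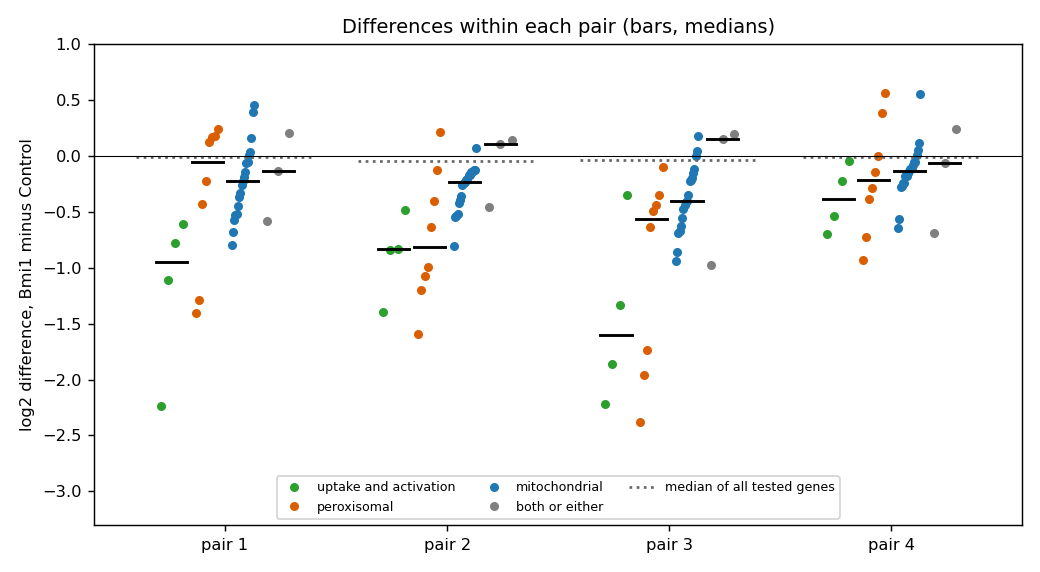
Log2 difference, Bmi1 minus Control, of each tested gene within each replicate pair (x axis), coloured by compartment, with bars at the median of each compartment and a dotted line at the median of all tested genes. In pair 3 the uptake genes reach the lowest median, -1.60, and in pair 4 the spread is smallest for the genes of uptake.

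A further 40 genes of the pathway, chosen with results of these data known, were read beside the 37. Of the 33 tested, 23 had a lower mean and 10 a higher one, with a median of -0.16, and 3 fell with the block. Of all tested genes, 54.3% had a lower mean and 1.96% were called lower with the block. Acsm1, a medium-chain acyl-CoA synthetase, read 14.5, 24.7, 4.09 and 14.9 on the Bmi1 arrays, against 76.5, 175, 46.2 and 57.0 on the Control arrays, a log2 difference of -2.36, with a limma adjusted p of 0.132, and 0.00749 with the block. Cd36, a fatty acid transporter, differed by -2.39, with a limma adjusted p of 0.551, and 0.0283 with the block. Scp2, the peroxisomal thiolase of branched chains and sterol carrier, differed by -0.73, with a limma adjusted p of 0.353, and 0.0162 with the block.

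The regulators did not move in 1 direction. Of 14 tested, 6 were lower and 8 higher, with a median of 0.09. Ppara differed by -0.71 (limma adjusted p 0.757, and 0.272 with the block), the coactivator Ppargc1a by -0.63 (0.943, and 0.362 with the block) and Hnf4a by -0.25 (0.947, and 0.300 with the block). None of these 3 passed. Nr1h4, the bile acid receptor FXR, fell with the block, at -1.38 (limma adjusted p 0.653 without it and 0.0310 with it). Prdm16, a transcriptional regulator best known from brown fat, rose in both models, with 73.3, 80.1, 72.5 and 61.1 on the Bmi1 arrays against 26.3, 18.4, 21.2 and 20.8 on the Control arrays, 2.82-fold higher (limma adjusted p 0.0406, and 0.0125 with the block). Pparg, named after its values were seen, read 79.9, 75.3, 65.6 and 53.98 on the Bmi1 arrays, against 12.2, 3.97, 35.3 and 34.4 on the Control arrays, and with groups apart it did not pass (0.0856 with the block).

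Among genes next to the pathway, PPARA targets outside oxidation had a median of -0.33, with 9 of 12 lower, and peroxins, which build the organelle, a median of -0.20, with 9 of 12 lower. Respiratory chain genes had a median of -0.04, with 21 of 26 lower. In limma none of these 3 lists had a called gene in either model. At an unadjusted p under 0.05 with the block, 3 of 12 PPARA targets, 1 of 12 peroxins and 1 of 26 respiratory chain genes were lower, where 10.6% of all genes were. The PPARA targets Cyp4a14, Cyp4a12a, Cidec and Fgf21 were below the level filter. Fitted without that filter they differed by -1.38, -1.97, -0.58 and -0.20, and none passed in either model. Cyp4a12a was above background on 4 Control and 0 Bmi1 arrays (limma adjusted p 0.186, and 0.0501 with the block).

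**Figure D5:**
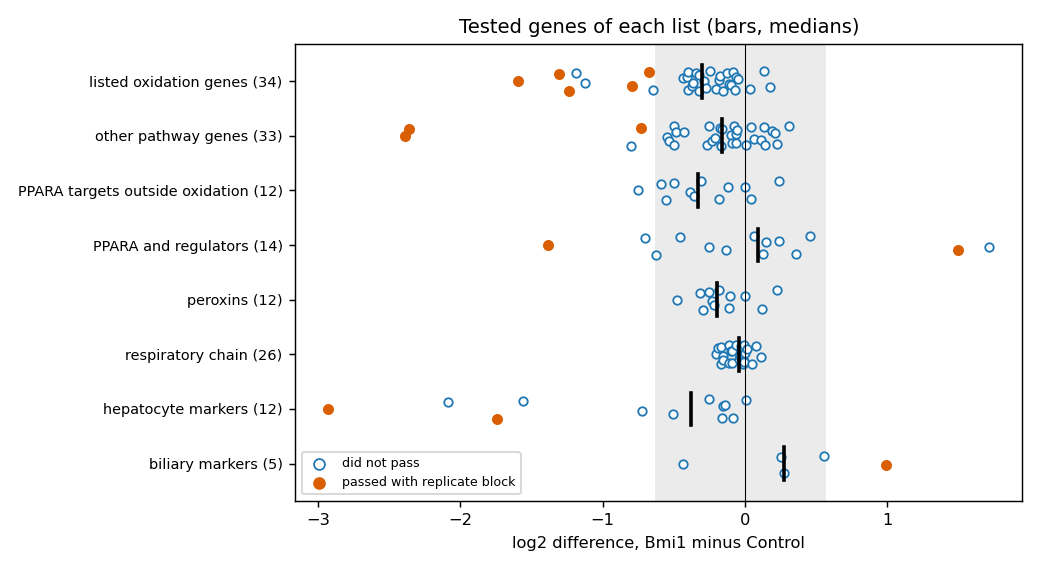
Log2 difference, Bmi1 minus Control (x axis), of every tested gene of 8 lists, number tested in brackets, with bars at the medians and filled points for genes that passed with the replicate block. The grey band is the middle 90% of all tested genes. The oxidation genes have a median of -0.30 and respiratory chain genes, the most tightly grouped, -0.04.

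Markers of the labelled cell type and of others were read for what moves with these values. All 12 hepatocyte markers with a probe set were bright enough to test, 11 were lower, with a median of -0.38, and their summed signal was 22114 to 33653 on the Bmi1 arrays and 26148 to 37032 on the Control arrays. Of these markers Fbp1 and Pck1, enzymes of gluconeogenesis, fell with the block, at -2.93 (limma adjusted p 0.00527) and -1.74 (0.0112), and Pck1 also without it (0.0434). With the block 1.96% of all genes were called lower. Of the 12 hepatocyte markers, 4 were more than 2-fold lower, where 2.47% of all genes were. The groups were apart and lower for 3 of the 12, where 2.91% of all genes were. Alb and Afp differed by -0.16 and -0.14. The 5 biliary markers had a median of 0.27, with 4 above 0, and Epcam rose with the block, at 0.99 (limma adjusted p 0.0220). The 11 tested fibroblast and stellate markers were all lower, with a median of -0.98, and of -1.58 in run 1 and -0.08 in run 2. By pair the medians were -4.16, -0.21, -0.54 and -0.26 in pairs 1 to 4, so pair 1 stood apart from pair 2 of the same run. Of the 11, 5 were more than 2-fold lower, where 2.47% of all genes were. With the block 1 of the 11 was called lower, where 1.96% of all genes were. These markers summed to 3641 to 7837 on the Bmi1 arrays and 4835 to 15588 on the Control arrays. The 4 tested mesothelial markers were also all lower, with a median of -0.53, and Msln fell with the block, at -1.26 (limma adjusted p 0.681 without it and 0.0483 with it). They summed to 1014 to 1409 on the Bmi1 arrays and 806 to 1912 on the Control arrays. The 4 tested macrophage markers were all lower, with a median of -0.39 and none called, and summed to 672 to 2462 on the Bmi1 arrays and 488 to 2807 on the Control arrays. Tnnt2, the 1 muscle marker tested, differed by -1.75 without passing, and the 6 muscle markers summed to 54.5 to 216 on the Bmi1 arrays and 93.5 to 883 on the Control arrays. The part of these cell types in the oxidation result was not tested. In runs 1 and 2 the medians were -0.35 and -0.27 for the oxidation genes and -0.25 and -0.54 for hepatocyte markers. They were -0.89 and -0.38 for mesothelial markers and -0.47 and -0.42 for macrophage markers. Of 5 adipocyte markers with a probe set, only Fabp4 was tested, at -2.04 (limma adjusted p 0.144, and 0.0483 with the block), and Adipoq and Lep were at background on all arrays. No endothelial or erythroid marker was bright enough to test, and Pecam1, Tek and Alas2 were at background.

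The promoter windows, from 250 bases before to 50 after the start, matched 30 of the 37 genes. Not matched were Decr1, Hsd17b4, Cpt1b, Acat1, Slc27a5, Crat and Acaa2. The repeat form of 2 AGGNCA copies with 1 base between, searched on both strands as every motif here, was in 1 of the 30, Fabp1, and in 0.381% of all 32851 windows. AGGTCA, which can lie within that form, was in 6 of the 30, Acadm, Acadvl, Cpt1a, Echs1, Fabp1 and Slc27a2, and in 16.3% of all windows. Of these 6, Fabp1 and Slc27a2 fell with the block. CAAAGTCCA, a form bound by HNF4A, was in 0 of the 30 and in 0.475% of all windows. CCAAT was in 14 of the 30 and in 37.4% of all windows, and TATAAA in Fabp1 and in 13.6%. The windows of Hadha and Hadhb, on opposite strands, share 228 bases. A match is a run of letters and no measured site.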

How the data were processed

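Expression was measured on 8 Affymetrix mouse arrays, 45101 probe sets each. The deposited values are signal intensities on a linear scale, made by software not given in the sources used here. Leaving out the top and bottom 2% of values, each array had a mean of 100.001, so the authors' intensities carry a global scaling. Gene symbols are those of the platform annotation, brought up to date by gene identifier. By these, 34945 probe sets had 1 symbol, 932 several and 9160 none, beside 64 control probe sets.

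Values were taken as log2(intensity + 3.78), so folds of dim genes are understated, and each array was centred on the median of the tested genes. Tested were 10916 of 18193 genes, those whose mean level reached the 40th percentile. Background on each array was the 95th percentile of 27 Bacillus control probe sets. Groups were compared in R 4.3.3 by limma 3.58.1 (two-sided, intensity trend, Benjamini-Hochberg over all tested genes, threshold 0.05), without a block and with the replicate number as one. For arrays with the same number, deviations around the group mean had correlations of 0.53, 0.49, 0.50 and 0.68, which with the 4 experiments is where the pairing comes from. For different numbers of the same run they were 0.12, 0.476, 0.355 and 0.277. Between runs all were negative, from -0.634 to -0.184. Bmi1 2 had 0.476 with Control 1, close to its 0.49 with Control 2. The labels do not state the pairing, and within a run these correlations do not settle it. The 4 arrays a group limit the precision.

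The listed genes, the further lists and the rule for named genes were chosen with earlier results of these data known. The rule gives every array's value for genes called in either model, for Bmi1 and for the largest difference in each role, and from further lists the called genes. Other scalings, constants, filters, probe set rules, blocks, and each array or pair left out were also run. Simulated data were made with replicate effects taken from these arrays, so the model with the block had an advantage by construction. Tested on simulated data with 200 of 10916 genes changed by a log2 difference of 1, the model without a block recovered 17% and that with it 53.5%. At a difference of 2 they recovered 78.5% and 88%. False calls numbered 0 without and 2 with the block at a difference of 1, and 0 and 7 at a difference of 2. At a difference of 3 they numbered 1 and 12. Whether the replicate numbers mark true pairs on the 8 arrays was not tested by the simulated data.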

Additional observations from a re-analysis of the deposited data

Results flagged for a closer look

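Of 68 groups of 4 arrays examined for an array far from the others, 2 stood out, where chance gives about 1 in 20 or 3.4. Acsl5 on Control 4 lay below the other Control arrays by a share of 0.866 of the whole range of the group. Hadhb on Control 1 lay below its group by a share of 0.911 of the range.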

How the results depend on the processing

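The count of pathway genes called lower was 0 without a block and 5 with the replicate block, 3 with run as a block and 1 with array weights. With the replicate block it was also 5 without centring, after quantile normalization, with every probe set tested or with the probe set of highest unlogged mean. It was 4 with probe sets averaged or with centring on all probe sets, 3 without the level filter, and 0 to 5 with a pair left out. Without a block it was 0 whichever array was left out. No setting run called a gene of the pathway higher. Centring on all probe sets, with or without the block, moved the median of all genes to 0.11, that of the pathway to -0.17 and that of mitochondrial genes to -0.14, and left 24 genes with a lower mean.

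10 differences changed sign, and the cause was not tested. Without centring, with or without the replicate block, the values were Cpt1a 0.0047, Decr2 0.025 and Eci1 0.0066. Centred on all probe sets, again with or without the block, they were Cpt1a 0.064, Crot 0.036, Decr2 0.085, Echs1 0.018, Eci1 0.066, Hadha 0.00455 and Pex11a 0.047. After quantile normalization Cpt1a read 0.038, with or without the block. With array weights the values were Acaa1a 0.034, Acads -0.12 and Decr2 0.11, in run 1 alone Crot 0.20, and in run 2 alone Acaa1a 0.061 and Decr2 0.14. With 1 array left out they ran from -0.34 to 0.13 for Acaa1a, -0.11 to 0.28 for Acads, -0.045 to 0.16 for Crat, -0.27 to 0.063 for Crot, -0.19 to 0.21 for Decr2, -0.23 to 0.00731 for Echs1, -0.28 to 0.018 for Hadha and -0.14 to 0.021 for Pex11a. With a pair left out and the block kept they ran from -0.40 to 0.12 for Acaa1a, -0.0198 to 0.091 for Crat, -0.20 to 0.084 for Crot, -0.19 to 0.15 for Decr2, -0.35 to 0.14 for Hadha and -0.16 to 0.000669 for Pex11a. Crat was below 0 without pair 2, at -0.00253, and without pair 3, at -0.0198. None of these genes passed in any setting. The other 24 tested genes kept the sign of their difference in every setting run. Of the 5 genes called with the block, Slc27a2, Ehhadh, Acaa1b, Fabp1 and Acad11 passed in 9, 11, 9, 5 and 5 of 33 settings. The 33 include the replicate block by which the 5 genes were chosen, and variants of it added after the data were seen. Passes without that block came only with run as a block, for Slc27a2, Ehhadh and Acaa1b, and with array weights, for Ehhadh.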
